A study of Mus musculus with 6 samples.

Results

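The genes described here encode the liver's conjugation enzymes, the glutathione S-transferases, UDP-glycosyltransferases and sulfotransferases, in mice that lack SIRT7 and in wild-type mice. Members were all genes whose single symbol in the platform annotation begins with Gst followed by a, m, p, t, k, o or z, or with Mgst, Ugt1, Ugt2, Ugt3, Sult1, Sult2, Sult3 or Sult5. The rule found 39 genes among the 12393 on the array, 21 glutathione transferases, 8 Ugt genes and 10 sulfotransferases. Where a gene had several probe sets, the one with the highest mean over the 6 arrays stood for it, and 33 of the 39 had a mean log2 value of at least 4 and were tested, among 8343 tested genes in all. The other 6 (Mgst2, Sult1c1, Sult1e1, Sult2a2, Sult2b1 and Sult3a1) were dim and are given as values. Just under the limit of 4 lay Mgst2, with a mean of 3.58, and Sult1e1, with 3.34, and the first member above it was Sult1c2, with 6.48. The lowest group mean of a tested member was 5.30 (Ugt2b38 in wild-type livers), so none passed the limit through 1 group alone.

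The groups were livers of Sirt7 knockout mice (3 samples) and livers of wild-type mice (3 samples), grouped by the Sirt7 allele. The labels name no treatment that sets the groups apart. Total RNA was hybridised as biotinylated cRNA to 1-colour Affymetrix expression arrays, 1 array per sample. The labels state no strain, age, sex or diet, and do not say how the allele was made or whether it was lost in all tissues. SIRT7 is an NAD-dependent deacylase of the nucleus, one of the sirtuins, and the study's title ties it to MYC activity and tumour suppression. Nothing in the labels states outright that each sample is another animal, and the p-values therefore reflect only how far these samples spread, a spread that may be technical.

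Conjugation makes lipophilic drugs, hormones, bile acids and products of lipid oxidation soluble enough to leave the cell, by attaching glutathione, a sugar or sulfate. Glutathione transferases use glutathione as the acceptor of electrophiles. UDP-glycosyltransferases, most of them in the endoplasmic reticulum, transfer a sugar, usually glucuronic acid, and cytosolic sulfotransferases transfer sulfate from an activated donor. In the liver these families are known as targets of xenobiotic receptors and of the oxidant-responsive factor NRF2, and several members are known to differ between male and female mice. Many of them sit in tandem clusters of near-identical genes, and array probes can then pick up RNA of a neighbour.

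Sequences upstream of 5 members are shown because their values carry the results below. They hold the 250 bases before the RefSeq gene start on build GRCm38.p6, 5′ to 3′ on the gene's own strand. Sult5a1 and Ugt3a1 had the smallest p-values among the members, and Ugt2b5, Ugt2b37 and Ugt2b38 are close relatives in 1 cluster whose values behaved differently. Capitals in the 3 Ugt2b sequences mark a run of 62 bases that is identical in all 3, and capitals in Ugt3a1 mark a match to the HNF1 half-site GTTAAT on the other strand. Nothing is capitalised in Sult5a1, where no searched motif was found.
Sult5a1 (chr8:123158281-123158530, minus strand): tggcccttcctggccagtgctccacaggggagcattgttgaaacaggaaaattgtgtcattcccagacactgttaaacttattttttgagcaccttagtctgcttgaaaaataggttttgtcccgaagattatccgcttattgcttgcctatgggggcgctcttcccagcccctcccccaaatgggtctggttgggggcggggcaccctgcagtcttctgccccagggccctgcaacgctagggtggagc
Ugt3a1 (chr15:9279579-9279828, plus strand): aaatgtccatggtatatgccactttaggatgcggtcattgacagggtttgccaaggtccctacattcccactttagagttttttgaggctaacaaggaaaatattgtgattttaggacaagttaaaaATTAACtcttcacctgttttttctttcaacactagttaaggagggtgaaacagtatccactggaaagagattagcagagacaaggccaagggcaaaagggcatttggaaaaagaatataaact
Ugt2b5 (chr5:87140341-87140590, minus strand): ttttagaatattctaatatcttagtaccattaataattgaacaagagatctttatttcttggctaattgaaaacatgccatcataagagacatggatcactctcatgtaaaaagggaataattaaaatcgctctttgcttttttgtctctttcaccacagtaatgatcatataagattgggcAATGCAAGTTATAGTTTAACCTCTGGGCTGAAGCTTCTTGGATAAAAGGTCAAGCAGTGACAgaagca
Ugt2b37 (chr5:87254789-87255038, minus strand): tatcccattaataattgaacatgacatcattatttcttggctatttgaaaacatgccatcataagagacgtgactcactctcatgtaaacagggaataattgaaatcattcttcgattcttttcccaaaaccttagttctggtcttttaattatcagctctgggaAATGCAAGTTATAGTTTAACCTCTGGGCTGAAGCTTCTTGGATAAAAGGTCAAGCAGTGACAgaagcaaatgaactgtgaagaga
Ugt2b38 (chr5:87424204-87424453, minus strand): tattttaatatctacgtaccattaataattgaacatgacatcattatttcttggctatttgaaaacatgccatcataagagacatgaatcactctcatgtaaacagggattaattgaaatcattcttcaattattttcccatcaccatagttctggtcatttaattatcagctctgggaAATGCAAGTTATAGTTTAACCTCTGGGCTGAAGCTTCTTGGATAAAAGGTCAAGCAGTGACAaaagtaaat

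Across the conjugation enzyme genes the knockout livers differed little from the wild-type livers. With limma, 0 of the 33 tested members passed at an adjusted p under 0.05, where 0.024% of all 8343 tested genes did (2 genes, Sirt7 among them). At an unadjusted p under 0.05 the knockout livers had 2 members lower and 0 higher, a share of 6.06% against 6.46% of all tested genes (3.42% lower and 3.04% higher), so the members' share is near that of the array as a whole. The groups did not overlap in 1 member toward higher values (Gstm4) and 1 toward lower values (Sult5a1), against 4.27% and 5.48% of all tested genes (9.74% in both directions). The median difference, knockout minus wild type, was 0.12 log2 units over the 33 members, with 19 above 0 and 14 below, and -0.032 over all tested genes. For 24 of the 33 members (72.7%) the 95% interval of the difference lay within 1 log2 unit of 0, that is within a 2-fold change either way. The share over all tested genes was higher, at 79.6%. In bulk liver RNA, fewer cells of a type and less RNA per cell cannot be told apart.

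**Figure D1:**
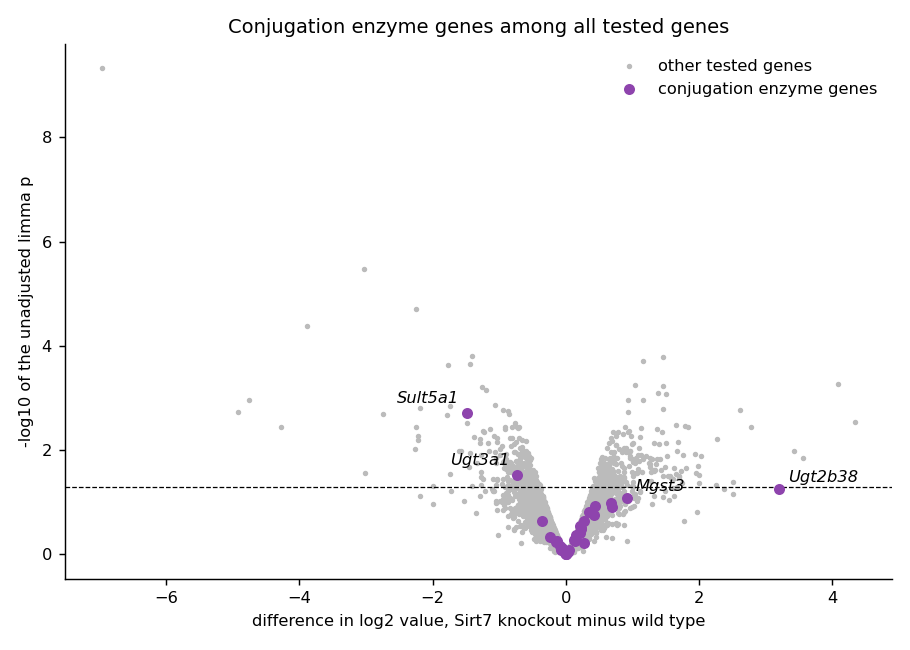
Difference in log2 value (horizontal, knockout minus wild type) against -log10 of the unadjusted limma p (vertical) for 8343 tested genes, with the 33 conjugation enzyme genes as large points and the dashed line at an unadjusted p of 0.05. Sult5a1 and Ugt3a1 lie above the line on the lower side, and Ugt2b38 stands far to the right just under it.

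The arrays were of like overall level, with medians of 5.69 to 5.77. Sirt7 itself was at 2.38, 3.10 and 2.86 in knockout livers and at 9.85, 9.80 and 9.57 in wild-type livers, a difference of -6.96 (SE 0.23, limma adjusted p = 3.99e-06). Wild-type replicate 3 stood apart from its group, since across the tested genes it correlated at 0.972 to 0.979 with the knockout arrays and at 0.968 to 0.971 with the other wild-type arrays. Knockout replicate 3 correlated at 0.969 to 0.979 with the wild-type arrays and at 0.962 to 0.976 with the other knockout arrays, and these ranges overlap. All 13 hepatocyte markers on the array were tested and 0 had an unadjusted p under 0.05. Their summed level, on the linear scale, was 79867 to 107543 in knockout livers and 88147 to 103531 in wild-type livers.

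Sult5a1, a member of the cytosolic sulfotransferase superfamily, showed the clearest difference of all the members. Its log2 values were 9.79, 8.79 and 9.89 in knockout livers 1 to 3, against 10.47, 11.25 and 11.22 in wild-type livers 1 to 3. Every knockout liver was below every wild-type liver, and knockout replicate 2 was the lowest of all 6. The means were 9.49 ± 0.61 in knockout and 10.98 ± 0.44 in wild-type livers (SD, n = 3 each). Sult5a1 differed by -1.49 (SE 0.34, 95% interval -2.27 to -0.71), or 2.81-fold lower. The unadjusted p was 0.00198, the 29th smallest of the 8343 tested genes, and the limma adjusted p was 0.544, so the difference did not pass over all genes. Leaving out 1 liver at a time gave -1.74 to -1.14, with an unadjusted p of at most 0.00835 in each of these fits. Sult5a1 is measured by 1 probe set, so no second reading of it was at hand.

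Ugt3a1 and Ugt3a2 are neighbours, and in humans their products are known to transfer sugars other than glucuronic acid. Ugt3a1 was at 8.46, 9.09 and 8.37 in knockout livers and at 9.57, 9.68 and 8.88 in wild-type livers. The groups overlapped through knockout replicate 2 and wild-type replicate 3, and the other knockout livers lay below all the wild-type livers. The difference was -0.73 (SE 0.28, 95% interval -1.38 to -0.087, unadjusted p = 0.0306, limma adjusted p = 0.769). A second probe set of Ugt3a1 read 7.76, 8.41 and 7.99 in knockout livers against 9.30, 8.96 and 8.44 in wild-type livers, with no overlap, and differed by -0.85 (limma adjusted p = 0.762 over all probe sets). With 1 liver left out the difference of the first probe set lay between -0.98 and -0.58, and its unadjusted p was above 0.05 without knockout replicate 1 or 3 or wild-type replicate 1 or 2, at up to 0.107. Ugt3a2, at 11.79, 11.55 and 11.36 in knockout and 11.35, 11.39 and 11.30 in wild-type livers, differed by 0.22 (95% interval -0.21 to 0.65).

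**Figure D2:**
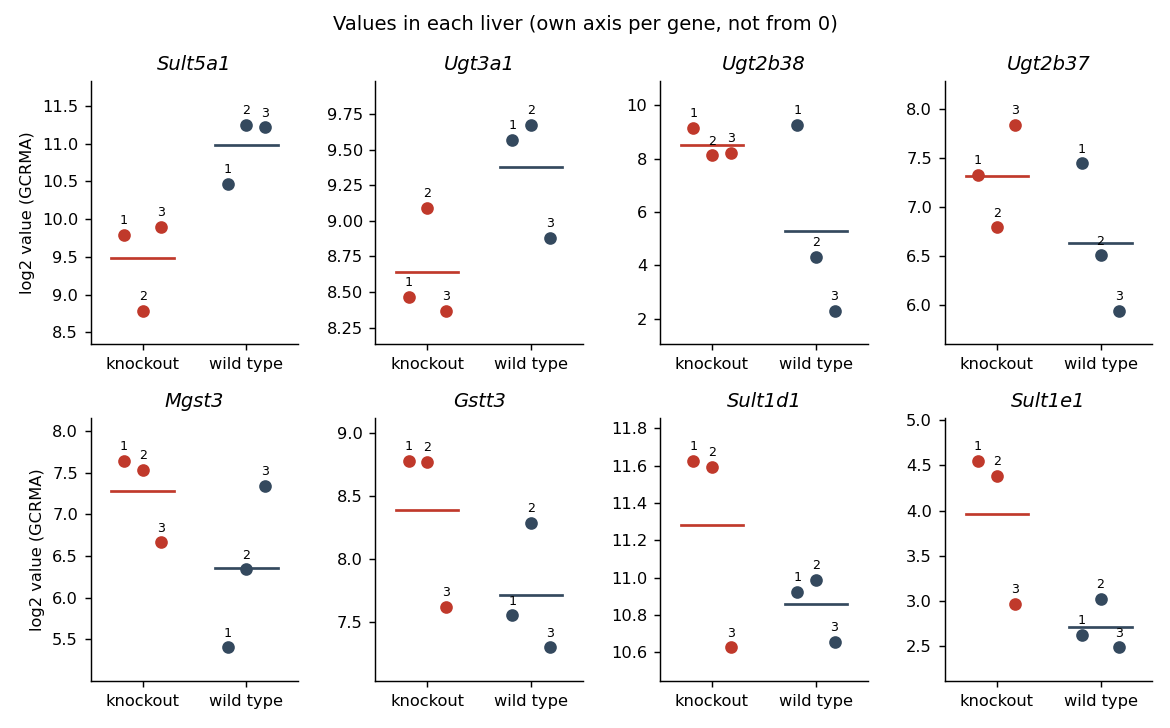
Log2 values of 8 conjugation enzyme genes in each liver, numbered by replicate, with knockout livers left, wild-type livers right and a bar at each group's mean; each gene has its own axis, which does not start at 0. Sult5a1 shows no overlap, Ugt2b38 is at 9.27 in wild-type replicate 1 but only 4.32 and 2.30 in replicates 2 and 3, and Sult1d1 and Sult1e1 are high in knockout replicates 1 and 2 only.

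The Ugt2 enzymes attach glucuronic acid to steroids, bile acids and drugs. Of the 6 members on the array, 4 were at nearly the same value in both groups, with differences between -0.065 and 0.040. Ugt2b1 was at 12.33, 12.21 and 12.08 in knockout livers and at 12.37, 12.18 and 11.97 in wild-type livers. Ugt2b5 was at 11.81, 12.18 and 12.04 in knockout livers and at 11.88, 12.12 and 12.06 in wild-type livers. In both genes the groups covered the same range. Ugt2a3 differed by -0.003 (SE 0.21) and Ugt2b34 by -0.065 (SE 0.19), and a second probe set of Ugt2b34 differed by 0.145.

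Ugt2b38 was the exception in the family, through its wild-type values. It was at 9.15, 8.12 and 8.2 in knockout livers, within 1.03 log2 units of each other, and at 9.27, 4.32 and 2.30 in wild-type livers, which spanned 6.97. Wild-type replicate 1 was the highest of all 6 livers, and the other wild-type livers were the lowest. The wild-type SD of 3.59 was the largest of any of the 8343 tested genes. The difference of 3.19 (SE 1.44, 95% interval -0.088 to 6.47, unadjusted p = 0.0551, limma adjusted p = 0.773) therefore did not pass. Without wild-type replicate 1 it was 5.18 (limma adjusted p = 0.0501), and without wild-type replicate 3, whose value of 2.30 is at the low end of the scale, it was 1.69 (unadjusted p = 0.198).

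Ugt2b37, next to Ugt2b5 in the gene order of GRCm38.p6, had a smaller difference, which did not pass. Its values were 7.33, 6.79 and 7.84 in knockout livers and 7.44, 6.50 and 5.94 in wild-type livers. Wild-type replicate 1 was the highest wild-type liver and wild-type replicate 3 the lowest, as in Ugt2b38, but knockout replicate 3 was the highest of all 6. Ugt2b37 differed by 0.69 (SE 0.40, unadjusted p = 0.12, limma adjusted p = 0.796). With 1 liver left out it lay between 0.35 (without wild-type replicate 3) and 1.10 (without wild-type replicate 1). Ugt2b38, Ugt2b37 and further members outside these were taken up after their values were seen.

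The upstream sequences of Ugt2b37 and Ugt2b38 were 95.3% identical over their aligned bases, and each was 88.3% to 88.5% identical to that of Ugt2b5, the gene with flat values. The shared run of 62 bases begins 68 bases before the gene start in Ugt2b5, 85 in Ugt2b37 and 71 in Ugt2b38. It was found in the window of no other gene in the table. It holds the nuclear receptor half-site AGGTCA. Ugt2b1, Ugt2b34 and Ugt2a3, the other members of the cluster, lacked the run and were 69.4% to 75.7% identical to these 3 genes. That range does not set the cluster apart, since the measure leaves out gaps. By it Ugt3a1, on chromosome 15, was 62.1% (Ugt2b37) to 77.2% (Ugt2b38) identical to them.

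Promoter windows were found for 35 of the 39 members, 45 windows in all, and 6 motifs were searched on both strands. The antioxidant response element core TGACNNNGC, bound by NRF2, was present upstream of 4 members (Gsta3, Gstm5, Gstm7 and Mgst1), in 8.89% of the member windows and 10.2% of all 32851 windows. The xenobiotic response element core GCGTG, bound by the AH receptor, was in 22.2% of the member windows and 28.2% of all windows. AGGTCA was in 13.3% against 14.02%, GTTAAT in 11.1% against 6.43%, and the STAT element TTCNNNGAA in 4.44% against 7.02%. The E-box CACGTG, the site of MYC, was in 0 of 45 member windows and in 6.02% of all windows. Each motif was counted on its own, whether or not it overlapped another, and a match is a description, not a binding site.

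The alpha class transferases, which handle products of lipid peroxidation, were level between the groups. Gsta3 was at 12.71, 12.33 and 12.72 in knockout livers and at 12.31, 12.49 and 12.88 in wild-type livers, a difference of 0.028 (95% interval -0.48 to 0.53). Gsta4, whose product conjugates 4-hydroxynonenal, was at 11.79, 11.49 and 11.86 in knockout livers and at 11.60, 12.04 and 11.54 in wild-type livers (-0.017, SE 0.21). The groups covered the same range in both genes. Gsta2 differed by -0.075 (SE 0.35), and its wild-type values spanned 1.40 log2 units.

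The mu class, with 7 members side by side in the gene order, is the main set of drug-conjugating transferases on the array. Gstm1 was at 12.47, 12.62 and 13.05 in knockout livers and at 12.59, 12.72 and 13.00 in wild-type livers (-0.061, SE 0.22). Gstm3 was at 11.58, 11.85 and 12.19 in knockout livers and at 11.82, 11.85 and 12.23 in wild-type livers (-0.094, SE 0.23). The groups overlapped almost fully in both. Gstm2 (0.12), Gstm5 (0.13), Gstm6 (-0.001) and Gstm7 (0.15) differed by no more than 0.15.

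Gstm4 was the member of the mu class whose groups did not overlap. It was at 9.74, 9.71 and 10.20 in knockout livers and at 9.01, 9.68 and 9.66 in wild-type livers. Knockout replicate 2 was above the highest wild-type liver by a small margin only. The difference was 0.44 (SE 0.25, 95% interval -0.13 to 1.0, unadjusted p = 0.118, limma adjusted p = 0.796), and 0.22 (without wild-type replicate 1) to 0.55 (without wild-type replicate 2) with 1 liver left out.

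Other probe sets of the mu class gave other values. A second probe set of Gstm1 read 10.74, 10.90 and 10.22 in knockout livers and 9.90, 9.60 and 9.94 in wild-type livers, with no overlap, and differed by 0.80 (unadjusted p = 0.00765, limma adjusted p = 0.739 over all probe sets). Another probe set of Gstm1 differed by 0.061. The second probe set of Gstm3 read 8.12, 8.35 and 8.75 in knockout livers and 7.09, 7.18 and 8.97 in wild-type livers (0.66, limma adjusted p = 0.806). The second Gstm1 probe set and the one used here carry the suffix that Affymetrix gives to probe sets that can match other transcripts, so the values of these paralogs are uncertain. Suffixes of this kind are also on the probe sets used for Gstm3, Gsto1 and Ugt3a1. The Gstm1 probe set that differed by 0.061 and the second one of Ugt3a1 carry none. Over all members, 9 further probe sets with a mean of at least 4 were available, and 5 of them pointed the other way from the probe set used.

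**Figure D3:**
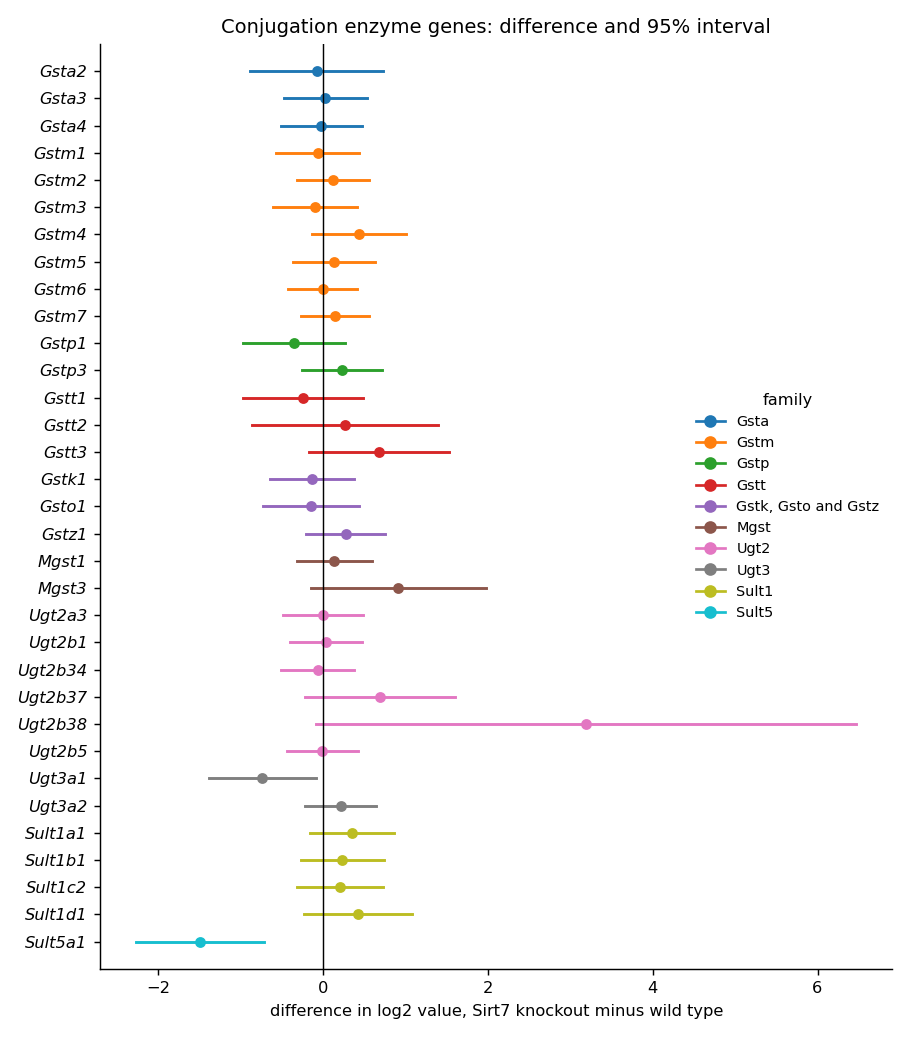
Difference in log2 value (knockout minus wild type, points) with its 95% interval (lines) for the 33 tested conjugation enzyme genes, coloured by family. The intervals of Sult5a1 (-2.27 to -0.71) and Ugt3a1 (-1.38 to -0.087) leave out 0, and that of Ugt2b38 is the widest.

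Gstp1 encodes the pi class enzyme, known to be more abundant in male than in female mouse liver. It was at 12.28, 12.23 and 13.04 in knockout livers and at 12.53, 13.02 and 13.06 in wild-type livers. Knockout replicates 1 and 2 were the lowest, and knockout replicate 3 was among the wild-type values. The difference was -0.35 (SE 0.27, 95% interval -0.97 to 0.26), and with 1 liver left out it lay between -0.62 (unadjusted p = 0.029, without knockout replicate 3) and -0.21 (unadjusted p = 0.511, without knockout replicate 2). Gstp3, close by in the gene order, was at 9.47, 9.62 and 9.87 in knockout livers and at 9.17, 9.37 and 9.72 in wild-type livers (0.23, SE 0.22).

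The theta class varied more between livers than the alpha and mu classes by its median SE, 0.37 against 0.22 in each. Gsta2 of the alpha class (SE 0.35) was an exception, with a larger SE than Gstt1. Gstt1, an enzyme for small halogenated compounds, was at 10.66, 10.66 and 11.63 in knockout livers and at 10.89, 11.68 and 11.11 in wild-type livers (-0.24, SE 0.32). Gstt2 was at 9.61, 8.04 and 8.18 in knockout livers and at 7.65, 8.15 and 9.21 in wild-type livers (0.27, SE 0.49), and 1 liver in each group was more than 1 log2 unit above the rest of that group. Gstt3 was at 8.78, 8.78 and 7.61 in knockout livers and at 7.55, 8.29 and 7.29 in wild-type livers, a difference of 0.68 (SE 0.37, 95% interval -0.17 to 1.53). With 1 liver left out, Gstt3 differed by 0.47 (without wild-type replicate 3) to 1.07 (unadjusted p = 0.0108, without knockout replicate 3), and Gstt1 by -0.57 to -0.017. Knockout replicates 1 and 2 were above all wild-type livers in Gstt3, and below all of them in Gstt1.

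Gstz1, which takes part in tyrosine breakdown as maleylacetoacetate isomerase, was at 12.95, 12.80 and 12.36 in knockout livers and at 12.49, 12.30 and 12.50 in wild-type livers (0.28, SE 0.21). Gstk1, a transferase of mitochondria and peroxisomes, was at 11.45, 11.32 and 11.80 in knockout livers and at 11.38, 11.66 and 11.94 in wild-type livers (-0.14, SE 0.22). Gsto1, of the omega class, differed by -0.15 (SE 0.26) and by -0.46 (limma adjusted p = 0.803 over all probe sets) on a second probe set. The groups overlapped in Gstz1, Gstk1 and on the Gsto1 probe set used.

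The membrane-bound transferases gave 1 level gene and 1 variable one. Mgst1, found in the endoplasmic reticulum and the outer mitochondrial membrane, was at 12.50, 12.63 and 12.19 in knockout livers and at 12.48, 12.25 and 12.18 in wild-type livers (0.14, SE 0.20), with -0.16 on a second probe set. Mgst3 was at 7.64, 7.53 and 6.66 in knockout livers and at 5.41, 6.34 and 7.34 in wild-type livers. Wild-type replicate 1 was the lowest liver and wild-type replicate 3 lay within the knockout range. The Mgst3 difference was 0.91 (SE 0.47, 95% interval -0.15 to 1.98, limma adjusted p = 0.781), and with 1 liver left out it lay between 0.44 (unadjusted p = 0.303, without wild-type replicate 1) and 1.40 (unadjusted p = 0.00688, limma adjusted p = 0.224, without wild-type replicate 3). Mgst2 was dim, at 3.00, 3.99 and 3.91 in knockout livers and 4.11, 2.92 and 3.53 in wild-type livers.

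The Sult1 enzymes sulfate phenols, thyroid hormones and catecholamines, and in all 4 tested genes knockout replicates 1 and 2 were the 2 highest livers. This was not particular to Sult1, since it also held in Gstm7, Gstt3, Gstz1, Mgst1, Mgst3, Ugt2a3 and Ugt3a2. Sult1a1, the phenol sulfotransferase, was at 12.64, 12.39 and 11.96 in knockout livers and at 11.87, 11.91 and 12.16 in wild-type livers. Sult1d1, a catecholamine sulfotransferase in mice, was at 11.62, 11.59 and 10.62 in knockout livers and at 10.92, 10.99 and 10.65 in wild-type livers. In both, knockout replicates 1 and 2 were above every wild-type liver and knockout replicate 3 was not.

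Sult1b1, which acts on thyroid hormones, and Sult1c2 also had knockout replicates 1 and 2 above every wild-type liver. Sult1b1 was at 10.09, 10.19 and 9.55 in knockout livers and at 9.60, 9.70 and 9.84 in wild-type livers. Sult1c2 was at 6.89, 6.70 and 6.17 in knockout livers and at 6.53, 6.34 and 6.26 in wild-type livers. Knockout replicate 3 was the lowest of the 6 livers in Sult1b1, Sult1c2 and Sult1d1. The differences were 0.35 (SE 0.22) for Sult1a1, 0.43 (SE 0.29) for Sult1d1, 0.23 (SE 0.22) for Sult1b1 and 0.21 (SE 0.23) for Sult1c2, none of which passed. A second probe set of Sult1d1 differed by 0.54, at 10.53, 10.18 and 8.85 in knockout and 9.16, 9.28 and 9.50 in wild type. It put the knockout livers in the same order. Wild-type replicate 3, however, was its highest wild-type liver, and the lowest on the probe set used.

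Sult1e1, the oestrogen sulfotransferase gene beside Sult1d1 in the gene order, was dim, with knockout replicates 1 and 2 again the highest. It was at 4.54, 4.38 and 2.96 in knockout livers and at 2.62, 3.02 and 2.49 in wild-type livers. The wild-type values and that of knockout replicate 3 are as low as Sirt7 in the knockout livers, so the size of the gap is not interpreted. With 1 liver left out, the differences of the tested genes lay between 0.20 and 0.53 for Sult1a1, 0.11 and 0.43 for Sult1b1, 0.059 and 0.42 for Sult1c2, and 0.25 and 0.75 for Sult1d1. The high end in each case was the fit without knockout replicate 3, where Sult1c2 had an unadjusted p of 0.0586, the other genes one under 0.05, and the 4 genes limma adjusted p-values of at least 0.265. Relative to each gene's mean of all 6 livers, the 4 tested Sult1 genes deviated on average by 0.43, 0.34 and -0.31 in knockout livers 1 to 3, against -0.153, -0.15 and -0.155 in wild-type livers.

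The remaining sulfotransferases were dim in all 6 livers. Sult2a2, of the hydroxysteroid sulfotransferases, was at 3.17, 2.83 and 2.36 in knockout livers and at 2.49, 2.5 and 2.75 in wild-type livers. Sult3a1, an amine sulfotransferase gene known to be expressed in female mouse liver, was at 1.96, 2.09 and 1.94 in knockout livers and at 1.91, 1.80 and 1.99 in wild-type livers. Sult2b1 and Sult1c1 had means of 1.98 and 2.05. At such low levels GCRMA values do not scale with RNA amounts.

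**Figure D4:**
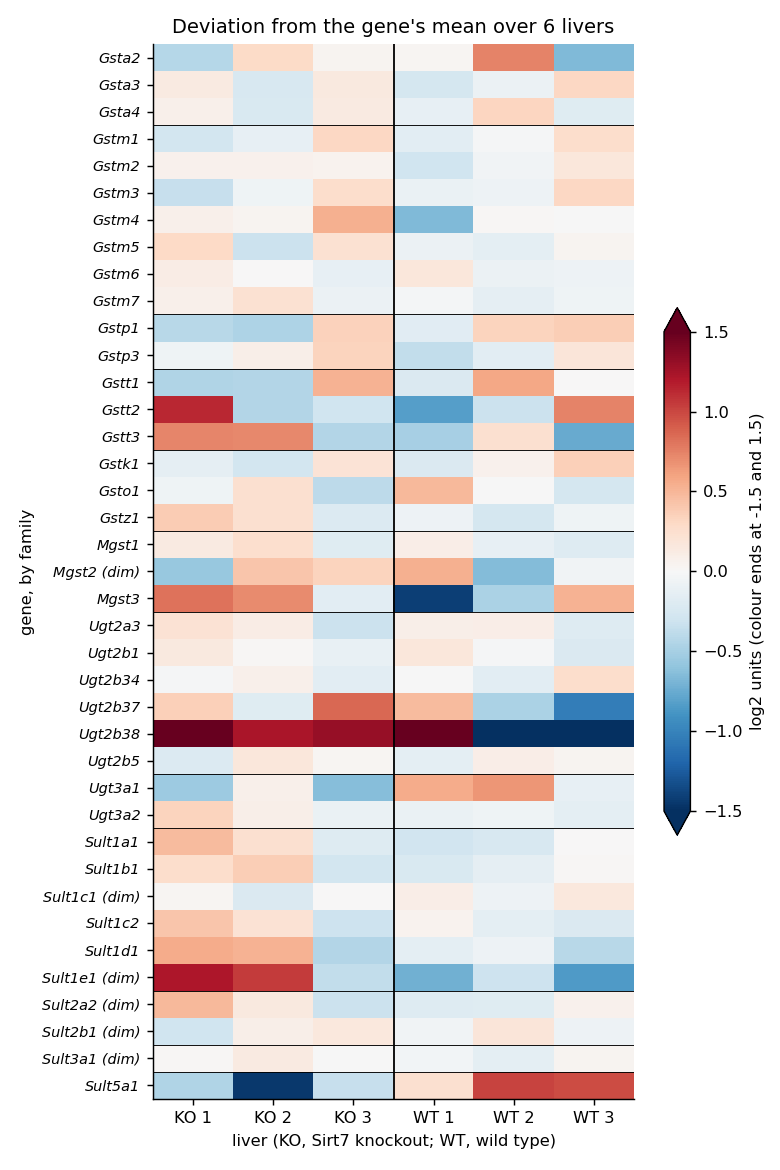
Deviation of each of the 39 conjugation enzyme genes (rows, by family) from its own mean over 6 livers, in log2 units, with knockout livers in the left 3 columns and wild-type livers in the right 3; colours end at -1.5 and 1.5, beyond which Ugt2b38 runs. Sult5a1 is low in all knockout livers, and the 4 tested Sult1 genes are high in knockout replicates 1 and 2 but not in replicate 3, while the dim Sult1c1 is not high in them.

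The Ugt1 locus gave no member, since its 3 probe sets carry the symbols of 8 Ugt1a genes that share their last exons. The first read 11.60, 11.61 and 11.78 in knockout livers and 11.61, 11.79 and 11.57 in wild-type livers, a difference of 0.008. The second read 12.07, 12.20 and 12.34 in knockout livers and 12.34, 12.52 and 12.61 in wild-type livers, a difference of -0.29 (limma adjusted p = 0.803 over all probe sets). The third differed by 0.097, so the 3 readings of the locus did not share a direction. A probe set shared by Gsta1, Gsta2 and Gm3776 differed by 0.54 (limma adjusted p = 0.825).

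The genes that feed and control conjugation gave no called member either. Of all tested genes 3.04% were higher and 3.42% lower at an unadjusted p under 0.05, the share to set beside each list's count. Some of the lists here and below share genes. In the list of glutathione synthesis and turnover 0 of 15 tested genes had an unadjusted p under 0.05, and the median difference was 0.008. Gclc, the catalytic subunit of the rate-limiting step of glutathione synthesis, was at 11.21, 11.26 and 11.55 in knockout livers and at 11.37, 11.22 and 11.40 in wild-type livers. The 2 genes with the smallest p there, Anpep (-0.58, SE 0.29) and Cbs (-0.50, SE 0.27), did not pass. Among 13 genes that supply the sugar and sulfate donors 0 had an unadjusted p under 0.05 (median 0.068). Ugdh, which makes UDP-glucuronic acid, differed by -0.023 (SE 0.18), and Cdo1 by -0.39 (SE 0.22).

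Papss2, which makes the sulfate donor that all sulfotransferases use, was at 11.04, 10.95 and 10.77 in knockout livers and at 10.05, 10.43 and 10.76 in wild-type livers. The groups did not overlap, by a narrow margin in replicate 3 of each, and the difference of 0.51 (SE 0.22, unadjusted p = 0.0518, limma adjusted p = 0.773) did not pass. Among 16 tested genes of other conjugating enzymes, 1 was higher and 2 were lower at an unadjusted p under 0.05 (median -0.19). Nat8, an N-acetyltransferase that completes mercapturic acids after glutathione conjugation, was at 6.72, 7.58 and 7.66 in knockout livers and at 9.28, 9.27 and 8.72 in wild-type livers. Every knockout value of Nat8 was below every wild-type value, and the difference was -1.77 (SE 0.29, unadjusted p = 0.00023, limma adjusted p = 0.213). Acsm2 differed by -0.88 (SE 0.35).

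Of the 17 tested NRF2 targets outside the conjugation families, 0 had an unadjusted p under 0.05, with a median of 0.12. Nfe2l2, the gene of NRF2, differed by 0.23 (SE 0.22), its inhibitor gene Keap1 by -0.099 (SE 0.19) and the target gene Nqo1 by 0.28 (SE 0.45). Srxn1 (0.54, SE 0.24) and Aox1 (-0.42, SE 0.22) had the smallest p of the list. Among the 18 targets of AHR, CAR and PXR outside the families, 2 were higher and 2 lower at an unadjusted p under 0.05 (median 0.11). Cyp2b10, the usual marker of CAR activity, was at 9.79, 8.11 and 9.06 in knockout livers and at 5.63, 7.86 and 7.66 in wild-type livers (1.94, SE 0.61, limma adjusted p = 0.746), with no overlap. Cyp1a2 (0.19, SE 0.19), an AHR target, and Cyp3a11 (0.19, SE 0.19), a PXR target, differed little. The receptor genes Ahr (-0.18, SE 0.27), Nr1i3 for CAR (0.45, SE 0.34) and Nr1i2 for PXR (0.39, SE 0.22) did not pass, and in their list of 23 genes 1 was higher (Nr0b2, 0.59, SE 0.25) and 1 lower (Foxa2, -1.03, SE 0.42) at an unadjusted p under 0.05.

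Conjugates leave hepatocytes through export pumps, and 2 of 15 tested transporters were lower at an unadjusted p under 0.05, with 0 higher. Of all tested genes 3.42% were lower and 3.04% higher at that p. Abcc2 was counted both here and among the AHR, CAR and PXR targets. Abcc2, the canalicular pump for glutathione and glucuronide conjugates, was at 10.27, 9.32 and 10.09 in knockout livers and at 10.73, 10.40 and 10.94 in wild-type livers. The groups did not overlap, and the difference was -0.80 (SE 0.28, limma adjusted p = 0.760). Abcc3, the pump toward the blood, differed by 0.43 (SE 0.32), and the uptake carrier gene Slc22a7 by -0.94 (SE 0.32, limma adjusted p = 0.746). Of 11 deconjugating enzymes and hydrolases 0 had an unadjusted p under 0.05, with the smallest p at Ces1d (0.48, SE 0.23) and Ces1e (-0.28, SE 0.19).

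Since several conjugation enzymes are sex-dependent in mice, sex-biased liver genes outside the families were set beside them. Of 12 tested genes known as higher in females, knockout livers had 6 higher and 0 lower at an unadjusted p under 0.05 (median 0.67). Of 12 known as higher in males, 0 were higher and 2 lower (median -0.22). Of all tested genes 3.04% were higher and 3.42% lower at that p. Cyp2b10 is among the 6 and was also counted among the AHR, CAR and PXR targets. Prom1 differed by 0.62 (SE 0.18), Hsd3b5 by -0.66 (SE 0.28) and Susd4 by -1.28 (SE 0.55). The mean deviation of the female-biased list was 1.05, 0.82 and -0.19 in knockout livers 1 to 3 and -1.24, -0.71 and 0.28 in wild-type livers 1 to 3. Knockout replicate 3 was thus the lowest knockout liver in this list and in the 4 Sult1 genes. It was so too in Gstz1, Mgst1, Mgst3, Gstt3, Ugt3a1 and Ugt3a2, among other members. In wild-type livers 1 to 3 the mean deviation of the 4 Sult1 genes was -0.153, -0.15 and -0.155. The single genes went different ways there. Among wild-type livers, replicate 3 was the highest in Sult1a1 and Sult1b1 and the lowest in Sult1c2 and Sult1d1. Whether the female-biased list has a part in the values of the conjugation enzymes was not tested. Limma called 0 genes of these lists over all genes. Pericentral hepatocyte genes had 0 of 15 members at an unadjusted p under 0.05 (median -0.067), and periportal genes 1 of 12 (median 0.039).

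Markers of other cell types and cell cycle genes were set beside these values. Of all tested genes 3.04% were higher and 3.42% lower at an unadjusted p under 0.05. Of 13 Kupffer cell and macrophage markers 2 were higher at an unadjusted p under 0.05, with a summed linear level of 11891 to 13485 in knockout and 11304 to 12460 in wild-type livers. Of 14 endothelial markers 0 were (5001 to 5973 in knockout and 4864 to 5706 in wild-type livers). For cholangiocytes, 1 of 4 tested markers was lower (summed level 89 to 100 in knockout and 95 to 126 in wild-type livers), and Epcam, Cldn4, Cldn7 and Cftr were dim. Of 11 stellate cell markers 1 was lower, of 12 lymphocyte markers 0 differed, and of 3 erythroid and platelet markers 1 was higher at that p. Of 20 cell cycle genes 14 were higher and 0 lower at that p (median 1.18), and limma's adjusted p called 0 of them. Their part in the values of Sult5a1 and the other members was not tested.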

How the data were processed

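The authors deposited 1 log2 expression value per probe set and array, and the submitters' processing notes name GCRMA 2.20.0 and R 2.11.1 without settings. The log2 scale was read from the range of 0.841 to 13.969. GCRMA models background from probe sequence and pulls unexpressed transcripts to low values. No detection calls come with the values, and precision is limited by the 3 arrays per group.

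Of 22626 probe sets, 20380 had 1 symbol in the platform annotation, 691 several and 1555 none or no entry. All 39 members' gene identifiers were found in the RefSeq table of GRCm38.p6. The 2 groups were compared by limma 3.58.1 under R 4.3.3 (lmFit, eBayes, 2-sided, no block) over genes with a mean of at least 4, Benjamini-Hochberg adjusted over all of them. Errors of differences are moderated SEs. The fit was tested on simulated data. Per-liver values were given for members at an unadjusted p under 0.05, for non-overlapping members with a difference of at least 0.5, and for the 2 highest members of each family; other members and genes were chosen after their values were seen. Members and lists were chosen with earlier results of these data known. Lists are described by counts and medians, without a set test. The alternatives tried were other limits on dim genes, other scaling, other uses of probe sets, other variance models, a replicate block and leaving out each liver.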

Additional observations from a re-analysis of the deposited data

How the results depend on the processing

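No conjugation enzyme gene passed limma's threshold in any fit except that with array weights. That fit called 8 of the 33 tested members, and 1748 of the 8343 tested genes in all. The members it called were Gstp1, Gstt1, Gstz1, Mgst3, Sult1a1, Sult1b1, Sult1d1 and Sult5a1. With array weights Sult5a1 differed by -2.16 (limma adjusted p = 0.00781). The number of called genes over the array was 1 with the mean of a gene's probe sets, 4 with a variance trend, 0 with an ordinary 2-sample test (405 genes at an unadjusted p under 0.05), and 1 to 38 without 1 liver, the highest without wild-type replicate 3. Members called stayed at 0 in each of those fits.

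Members lower at an unadjusted p under 0.05 numbered 5 with array weights, 1 with the ordinary 2-sample test (Sult5a1), and 1 to 2 without 1 liver. Members higher numbered 1 without the limit on dim genes (Sult1e1), 1 with each probe set on its own (a second Gstm1 probe set), 10 with array weights, 1 with a variance trend (Ugt2b38), 2 with the replicate block (Gstt3 and Ugt2b38), and 0 to 6 without 1 liver, the highest without knockout replicate 3. Without that liver the 2 lower members were Sult5a1 and Gstp1. For most of these fits the share of all tested genes at that p was not counted. The counts are therefore not read as a result about the members. The median difference of the members lay between 0.060 and 0.153 over all alternatives. The cause of these shifts was not tested.

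Replicate numbers did not pair the livers: deviations from the group means correlated at -0.089, -0.091 and -0.194 for same-numbered livers. Among differently numbered livers, knockout 1 with wild type 3 (0.259), knockout 2 with wild type 1 (0.192) and knockout 3 with wild type 2 (0.315) correlated positively. The remaining pairs were negative. Whether livers were paired in some other way was not tested. With the replicate block, 0 members and 2 genes in all were called.

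Signs turned in genes with differences of at most 0.28. With quantile normalization these were Gsta4 (0.0079), Gstm1 (0.020), Ugt2a3 (0.021) and Ugt2b5 (0.049). With arrays centred on their median they were Gsta4 (0.0077), Gstm6 (0.024), Ugt2a3 (0.022), Ugt2b5 (0.019) and Ugdh (0.0020). With the mean of probe sets they were Gstm1 (0.23), Gstm3 (0.28), Mgst1 (-0.0135), Ugt2b34 (0.040) and Keap1 (0.067). On further probe sets they were Gstm1 (0.80 and 0.061), Gstm3 (0.66), Mgst1 (-0.16) and Ugt2b34 (0.145). With array weights they were Gsta3 (-0.12), Gstm5 (-0.14), Gstm6 (0.042), Gsto1 (0.11), Ugt2a3 (0.035), Ugt2b34 (0.135), Ugt2b5 (0.091), Gclc (-0.0092), Ahr (0.046) and Ugdh (0.062). Without 1 liver the ranges that cross 0 were -0.42 to 0.28 for Gsta2, -0.098 to 0.19 for Gsta3, -0.11 to 0.14 for Gsta4, -0.28 to 0.0057 for Gstk1, -0.23 to 0.060 for Gstm1, -0.25 to 0.054 for Gstm3, -0.057 to 0.082 for Gstm6, -0.31 to 0.059 for Gsto1, -0.23 to 0.71 for Gstt2, -0.11 to 0.16 for Ugt2a3, -0.061 to 0.14 for Ugt2b1, -0.16 to 0.051 for Ugt2b34, -0.091 to 0.094 for Ugt2b5, -0.21 to 0.0013 for Keap1, -0.094 to 0.72 for Nqo1, -0.097 to 0.072 for Gclc, -0.38 to 0.097 for Ahr and -0.082 to 0.031 for Ugdh.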
